A study of Mus musculus with 18 samples.

Results

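The enzymes that make haem were followed in RNA of the mouse hippocampus. They are the products of Alas1, Alas2, Alad, Uros, Urod, Cpox, Ppox and Fech, listed in the order of the pathway. Their probes were found by the gene symbol that the platform's annotation gives them, without use of any measured value. Each of the 8 genes had 1 probe, so 8 of the 23473 probes of the array are described here, and all 8 passed the filter on dim probes that kept 22544.

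The study hybridised hippocampal RNA to 18 single-colour DNA microarrays, with as many arrays as the labels count mice. The wild-type group held 7 mice. The AtrxΔE2 group held 7 mice whose allele carries a deletion in Atrx, the X-linked gene of a chromatin remodeller. The last group held 4 AtrxΔE2 mice dosed orally with 5-aminolevulinic acid (5-ALA), 3 mg per kg once daily, which began at postnatal day 30 and stopped at day 90. The labels give no strain, sex, age at collection or vehicle for the untreated mice, and no group of treated wild-type mice was analysed here. The arrays' identifiers fall into a pair of series. Series A holds 3 wild-type and 3 AtrxΔE2 arrays, and series B holds 4 wild-type, 4 AtrxΔE2 and all 4 treated arrays. Groups were therefore compared inside a series only, which leaves 3 against 3 or 4 against 4 arrays.

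Haem is an iron-bearing ring that cytochromes, catalase, guanylate cyclase and nitric oxide synthase need to work. Its synthesis begins and ends in mitochondria. ALA synthase joins glycine to succinyl-CoA to give 5-ALA, the enzymes of the cytosol turn 5-ALA into a porphyrin ring, and the last enzymes oxidise the ring and place iron in it. ALAS1 is the form of ALA synthase that most tissues use and ALAS2 is that of red cell precursors. In liver, haem lowers ALAS1, so that the end product restrains its own synthesis. Given 5-ALA enters the pathway after ALA synthase.

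The series and groups differed in ways that bear on every value below. The blank spots of an array averaged 37.1 to 40.7 intensity units in series A. In series B they averaged 55.3 to 56.6 units in wild type, 59.3 to 61.6 in AtrxΔE2 and 61.9 to 63.2 after 5-ALA, with no overlap between these groups. Within a group of series B, arrays with consecutive identifiers resembled each other more than the other arrays did. Their deviations from the group mean correlated across probes with a median r of 0.216 over 6 such pairs (-0.201 to 0.454). Over the 12 other pairs the median was -0.626 (-0.772 to -0.264). Deviations from a mean of 4 arrays sum to 0, so r lies below 0 on average even for unrelated arrays. The labels do not say whether consecutive arrays share a slide, a litter or RNA, so the number of independent samples may be smaller than the number of arrays. A listed choroid plexus signal was nearly absent from series A, where the 7 markers summed to 20.3 to 90.1 units of the authors' normalized intensity (array median 25), against 24700 to 35800 in series B arrays. Markers of hippocampal CA1 neurons (3 of 4 with a probe) summed to 109 to 172 in the series A arrays, against 232 to 531 in those of series B. Among them Spink8 averaged 67.9 in wild type of series A and 220 in that of series B, and Fibcd1 4.67 and 9.07. Wfs1 went the other way, at 78.3 and 55.2. The 3 CA3 markers summed to 466 to 744 in series A. The 4 dentate granule markers summed to 39.1 to 48.4 there, with wild-type means of 2.97 to 20.9. Hippocampal markers were thus present as CA1 and CA3 sums, while the dentate granule sum was lower in series A than in series B. In wild type the dentate list differed between series A and B mostly through C1ql2 (mean 11.1 and 173), with Dsp at 2.97 and 19.3. Prox1 stood at 8.93 and 10.2, and Tdo2 at 20.9 and 18.6. Atrx, the targeted gene, fell in AtrxΔE2 by 0.40 over both series (log2, SE 0.0613, limma adjusted p = 0.0103). AtrxΔE2 array 7 of series B gave no Atrx value. Under other processing or with 1 array left out, the Atrx difference over both series ran from -1 to -0.36. Atrx was not called in series A (-0.52, adjusted p = 0.179) or series B (-0.29, 0.0927) alone, nor over both with consecutive arrays averaged (0.0923). Where its probe lies relative to the deletion is not given, so this level does not check the deletion.

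On each of the 18 arrays the probes of all 8 enzymes were brighter than 95 percent of that array's blank spots. Alas1, the housekeeping ALA synthase gene, stood at 8.95 to 28.9 times that level. Alas2, the erythroid ALA synthase gene, was the dimmest, at 1.6 to 3.29 times. Levels of different probes are not comparable with each other, so each gene is set only against itself. Values are log2 intensities after background correction with an offset of 50 and quantile normalization. The offset understates the change of dim genes, Alas2 above all, and folds on the authors' normalized intensities, which hold no offset, are given beside some of the fitted changes.

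The start regions of 4 members are shown because their probes differed after 5-ALA: Alas1 was not called, Urod and Ppox fell, and Alad was low on all 4 treated arrays without passing the test. Each line is the 250 bases before a listed start of transcription, 5′ to 3′ on the gene's strand, from RefSeq on GRCm38.p6. Capitals mark the E-box CACGTG, a site that factors such as USF and MYC can bind. Alas1 lies on the minus strand at chr9:106247955-106248204, Alad on the minus strand at chr4:62520064-62520313, Urod on the minus strand at chr4:116994414-116994663 and Ppox on the minus strand at chr1:171281187-171281436.
Alas1: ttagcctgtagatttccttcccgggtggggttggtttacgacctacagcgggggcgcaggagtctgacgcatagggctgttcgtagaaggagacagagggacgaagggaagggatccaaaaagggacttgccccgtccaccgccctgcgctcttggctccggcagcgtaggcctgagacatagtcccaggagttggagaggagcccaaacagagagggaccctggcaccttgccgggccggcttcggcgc
Alad: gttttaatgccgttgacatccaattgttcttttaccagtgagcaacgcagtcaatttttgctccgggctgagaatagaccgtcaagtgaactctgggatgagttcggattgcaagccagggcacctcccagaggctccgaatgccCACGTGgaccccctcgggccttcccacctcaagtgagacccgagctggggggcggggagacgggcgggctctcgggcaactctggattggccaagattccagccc
Urod: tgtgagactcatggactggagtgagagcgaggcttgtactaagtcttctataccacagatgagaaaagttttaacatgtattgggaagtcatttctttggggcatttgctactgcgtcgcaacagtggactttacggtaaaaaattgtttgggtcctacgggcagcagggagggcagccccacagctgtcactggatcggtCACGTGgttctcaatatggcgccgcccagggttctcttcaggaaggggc
Ppox: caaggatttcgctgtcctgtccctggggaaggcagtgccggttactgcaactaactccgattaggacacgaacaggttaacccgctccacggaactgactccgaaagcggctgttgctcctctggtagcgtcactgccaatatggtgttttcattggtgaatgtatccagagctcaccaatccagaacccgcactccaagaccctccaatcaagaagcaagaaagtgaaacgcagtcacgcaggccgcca

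Start regions were found for 7 of the 8 members, in 10 windows that run from 250 bases before to 50 bases after a start. The E-box, which reads the same on both strands, was in 4 of the 10 member windows, against 7.15% of all 32851 windows. These windows belong to 3 members, Alad (105 bases before the start in the window shown), Urod (49) and Uros (250). The core of the NRF1 site, GCGCA and GCGC with any base between them, was searched on both strands. It was in 3 of the 10 member windows, which belong to 2 members, Alas1 and Uros, against 4.60% of all windows. NRF1 is a regulator of nuclear genes of mitochondrial proteins. In the upstream Alas1 window its matches began at bases 1 and 30 after the start, and in that of Uros 47 bases before it. In the second Alas1 window, which is not shown, the same letters began 224 and 195 bases before the start. GATAAG, the letters of a GATA factor site, was searched on both strands. It was in 2 of the 10 member windows, which belong to Cpox and Uros, against 7.44% of all windows. No searched motif overlapped another in these windows. A match is a description of letters only.

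The comparison of AtrxΔE2 with wild type asked whether the mutation changes the enzymes in untreated mice. It showed no call. In series A, 0 of the 8 members were called and 1 had an unadjusted limma p under 0.05, where 0.00887% of all tested probes were called and 3.02% had such a p. In series B, 0 were called and 1 had an unadjusted p under 0.05, where 2.41% of all tested probes were called and 16.6% had such a p. With arrays scaled to their median instead, 2 members were called higher in series B, Urod (limma adjusted p = 0.0269) and Fech (0.0326), but so were 5.7% of all tested probes, and 17.5% were called in either direction. The members' median change was 0.00 in the first and 0.02 in the second series, against -0.001 and 0.002 over all tested probes. Over both series, 4 members lay above 0 and 4 below it, and 0 were called or had an unadjusted p under 0.05, where 0.444% and 9.22% of all tested probes did. The limma adjusted p ran from 0.553 to 0.982. With median scaling, 2 members were called higher over both series, Alad (adjusted p = 0.042) and Fech (0.0289), as were 4.21% of all tested probes, with 18.6% called in either direction.

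Alas1 stood at 9.77, 9.65 and 9.62 in the wild-type and at 9.64, 9.68 and 9.66 in the AtrxΔE2 arrays of series A. In series B it stood at 9.54, 9.38, 9.38 and 9.54 in wild type and at 9.39, 9.47, 9.55 and 9.55 in AtrxΔE2. The genotypes overlapped in both series. The difference over both series was 0.01 with a 95% confidence interval from -0.07 to 0.08 that takes arrays as independent. With median scaling it was 0.10 (limma adjusted p = 0.183) and on the authors' intensities -0.04 (0.865).

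Alad, whose enzyme joins a pair of 5-ALA molecules into the pyrrole porphobilinogen, was the member that stood farthest above wild type in AtrxΔE2 of series A. It measured 8.51, 8.23 and 8.20 in wild type and 8.59, 8.58 and 8.65 in AtrxΔE2, groups that did not overlap, as held in that direction for 3.63% of all tested probes. The difference was 0.29 (SE 0.126, 95% interval 0.02 to 0.56, limma adjusted p = 0.9997). In series B the values were 8.43, 8.56, 8.54 and 8.53 in wild type and 8.55, 8.54, 8.62 and 8.57 in AtrxΔE2. There the groups overlapped and the difference was 0.05 (SE 0.11).

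Urod, whose enzyme removes carboxyl groups from uroporphyrinogen in the cytosol, showed the opposite order of the series. In series A it measured 8.96, 8.83 and 8.99 in wild type and 8.89, 8.90 and 8.84 in AtrxΔE2, a difference of -0.05 (SE 0.0768). In series B it measured 8.99, 9.02, 8.86 and 9.06 in wild type and 9.30, 8.97, 9.19 and 9.14 in AtrxΔE2. This difference was 0.17 (SE 0.0665, 95% interval 0.03 to 0.31, limma adjusted p = 0.216). The genotype effects of the series differed by 0.22 for Urod and by -0.24 for Alad. Neither difference passed the test, at limma adjusted p of 0.558 and 0.732, and 0 of the 8 members did, where 0.102% of all tested probes were called.

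For the other enzymes the genotype differences were as follows. Uros, whose enzyme closes the porphyrin ring, stood at -0.10 in series A and -0.06 in series B. Cpox, whose enzyme oxidises coproporphyrinogen between the mitochondrial membranes, stood at 0.05 and -0.08. Ppox, whose enzyme makes protoporphyrin, stood at -0.05 and 0.00, and Fech, whose ferrochelatase places iron in the ring, at 0.05 and 0.06. Alas2 stood at 0.02 and -0.09. Each of these 10 differences had a 95% interval that included 0. Under other scalings some of these small values changed sign, as given in the closing section.

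**Figure D1:**
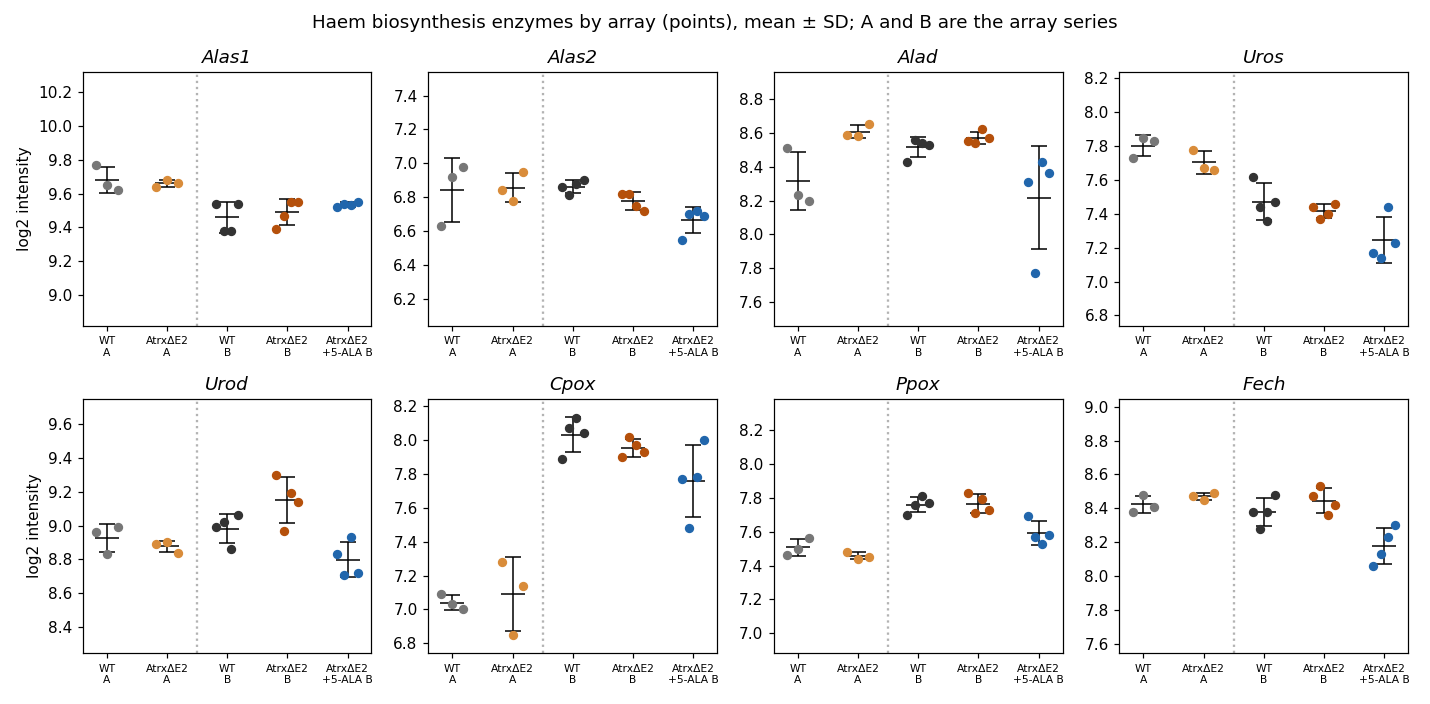
Log2 intensity of the 8 enzyme genes on each array (points), with the mean and SD of each group, by array series A and B. After 5-ALA, Alad, Urod, Ppox and Fech lay below all 4 untreated AtrxΔE2 arrays of series B, while Alas1 lay inside their range, and Cpox differed most between the series.

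The comparison of treated with untreated AtrxΔE2 mice asked what daily 5-ALA changed, on 4 against 4 arrays of series B. Urod, Ppox and Fech fell. Urod fell by 0.35, Fech by 0.26 and Ppox by 0.17 on the log2 scale. Of the 8 members, 3 were called lower and 0 higher, where 3.26% of all tested probes were called lower and 3.49% higher, and 5 had an unadjusted limma p under 0.05, as did 22.3% of all tested probes. The median change of the members was -0.18, against 0 over all tested probes. The 6 enzymes that act on 5-ALA or its products all lay below 0, with a median of -0.23 and a range from -0.35 to -0.17, and 50.4% of all tested probes lay below 0. Treated and untreated arrays did not overlap for 5 members, each lower after 5-ALA, where 5.78% of all tested probes showed this. Averaging consecutive arrays of series B before the fit left 0 calls among the members, and log2 values of the authors' intensities also left 0. Without 5-ALA 3 the count was 5, with Alad and Uros added.

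**Figure D2:**
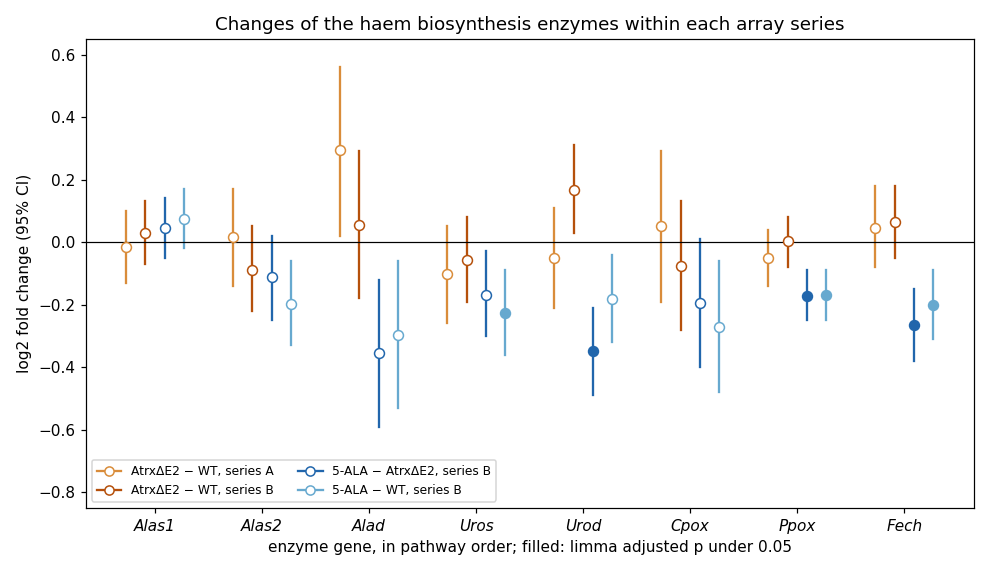
Log2 fold changes of the 8 enzyme genes with 95% confidence intervals from the limma fit, for the genotype in each series and for 5-ALA against AtrxΔE2 and against wild type. Filled points passed an adjusted p of 0.05, which were Urod, Ppox and Fech against AtrxΔE2 and Uros, Ppox and Fech against wild type.

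Urod measured 8.83, 8.71, 8.93 and 8.72 on the treated arrays 1 to 4. The untreated arrays 4 to 7 of series B measured 9.30, 8.97, 9.19 and 9.14. All treated arrays lay below all untreated ones, by 0.04 at the closest. The fall was 0.35 (SE 0.0665, 95% interval -0.49 to -0.21, limma adjusted p = 0.00802, n = 4 per group), and the authors' intensities averaged 0.794 of the untreated level. Of the 22544 tested probes, 280 had a smaller p. The limma adjusted p was 0.0592 with consecutive arrays averaged, 0.0683 with them as a random block and 0.0655 on the authors' intensities. Urod was also the member that stood farthest above wild type in untreated AtrxΔE2 of series B, whose arrays the comparison uses as its base.

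Fech, the ferrochelatase gene, measured 8.06, 8.13, 8.23 and 8.30 on the treated arrays and 8.47, 8.53, 8.36 and 8.42 on the untreated ones. The groups did not overlap and lay 0.06 apart at the closest. The fall was 0.26 (SE 0.0527, 95% interval -0.38 to -0.15, limma adjusted p = 0.0103), or 0.833 of the untreated level on the authors' intensities. The call was lost with consecutive arrays averaged (limma adjusted p = 0.173) and on the authors' intensities (0.0858), and it held with those pairs as a random block (0.0394) and in all 18 fits that left out 1 array.

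Ppox, whose product is the oxidase before ferrochelatase, measured 7.69, 7.57, 7.53 and 7.58 on the treated arrays against 7.83, 7.71, 7.79 and 7.73 on the untreated ones. Here too the groups did not overlap, although the highest treated array lay only 0.02 below the lowest untreated one. The fall was 0.17 (SE 0.0363, 95% interval -0.25 to -0.09, limma adjusted p = 0.0141), or 0.883 of the untreated level on the authors' intensities. It had the smallest standard error of the 8 members. The call was lost with consecutive arrays averaged (limma adjusted p = 0.152) or as a random block (0.0769), with median scaling (0.107), with a trended robust prior (0.0632) and on the authors' intensities (0.195).

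Alad had the single array farthest below the untreated mean. Its treated arrays measured 8.31, 7.77, 8.43 and 8.36 against 8.55, 8.54, 8.62 and 8.57 in the untreated. The groups did not overlap, but treated array 2 stood far below the other three. The difference was -0.35 (SE 0.11, 95% interval -0.59 to -0.12), as large as that of Urod, and did not pass the test (limma adjusted p = 0.0668). Without array 2 it was -0.20 (adjusted p = 0.0809). It passed without array 3 (-0.42, adjusted p = 0.0323) or array 4 (-0.40, 0.0468), with an additive series term (-0.40, 0.0313) and with array weights (-0.36, 0.0498).

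Uros and Cpox shifted the same way with overlapping groups. Uros measured 7.17, 7.14, 7.44 and 7.23 after 5-ALA and 7.44, 7.37, 7.40 and 7.46 in untreated AtrxΔE2, so that treated array 3 lay among the untreated ones. Its difference was -0.17 (SE 0.0634, limma adjusted p = 0.123), and it passed the test without treated array 3 (-0.24, adjusted p = 0.0171). Cpox measured 7.77, 7.48, 7.78 and 8.0 against 7.90, 8.02, 7.97 and 7.93. Its difference was -0.20 (SE 0.0978, limma adjusted p = 0.257), with treated array 4 near the top of the untreated range. With the replicate number as a block its sign turned (0.15).

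The ALA synthase genes, which act before the point where 5-ALA enters, gave no call. Alas1 measured 9.52, 9.54, 9.53 and 9.55 on the treated arrays, all inside the untreated range of 9.39 to 9.55. Its difference was 0.04 (SE 0.046, 95% interval -0.05 to 0.14, limma adjusted p = 0.645). Alas2 measured 6.55, 6.70, 6.72 and 6.69 against 6.82, 6.82, 6.75 and 6.72. Its groups did not overlap, with the closest arrays both at 6.72, and the difference was -0.11 (SE 0.0633, limma adjusted p = 0.327), or 0.833 of the untreated level on the authors' intensities.

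**Figure D3:**
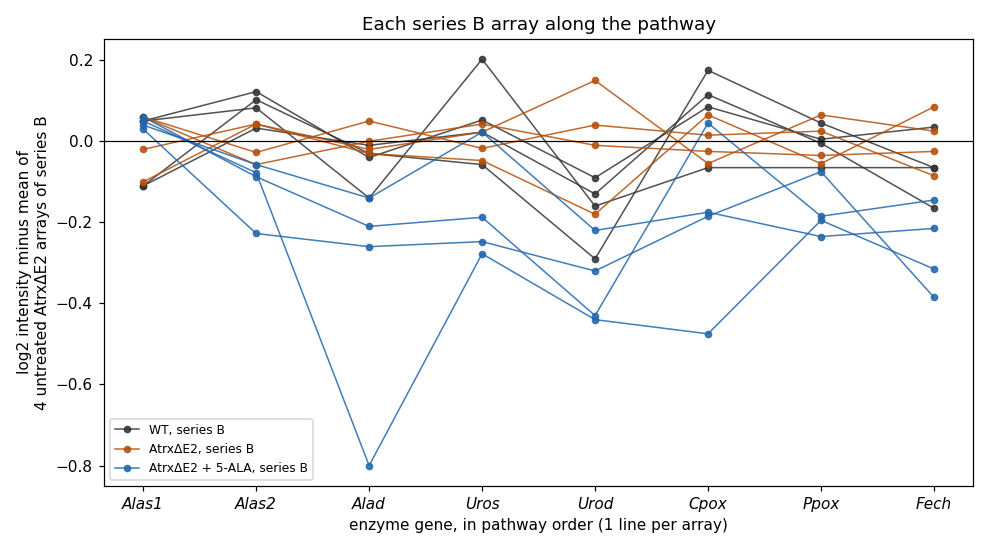
Each of the 12 series B arrays as a line along the pathway, as log2 intensity minus the mean of the 4 untreated AtrxΔE2 arrays. The treated arrays had a median over the 8 genes between -0.30 and -0.16, and those of the untreated arrays lay between -0.06 and 0.04.

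Among the 12 series B arrays the members other than Alas1 varied together. Of the 28 pairs of members, 21 had a positive Pearson r, with a median of 0.56 over all pairs, and the other 7 pairs all held Alas1. After each group's mean was taken away the median r was 0.0749, with 15 pairs above 0. Alad and Cpox kept an r of 0.812, and both had their lowest value on treated array 2. These correlations share the arrays and their normalization, and they are descriptions.

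Treated AtrxΔE2 mice were also set against wild-type mice of series B, which asked whether the treated enzymes lay at the wild-type level. Ppox, Fech and Uros were lower than in wild type. Of the 8 members 3 were called lower and 0 higher, where 4.87% of all tested probes were called lower and 5.49% higher. The 7 members other than Alas1 lay below 0, where 48.5% of all tested probes did, and each had an unadjusted limma p under 0.05, against 27.1% of all tested probes with such a p in either direction. The groups did not overlap for 3 members, Alas2, Alad and Ppox, each lower after 5-ALA, as held for 7.67% of all tested probes. The members' median was -0.20, against 0.002 over all tested probes. This comparison and the preceding one use the same treated arrays, so their similarity is no further evidence.

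Ppox measured 7.70, 7.76, 7.81 and 7.77 in wild type, above all treated arrays. It fell by 0.17 (SE 0.0363, limma adjusted p = 0.0113), or to 0.840 on the authors' intensities, on which the median of all probes also lay at -0.114 (log2) against wild type. Fech measured 8.38, 8.28, 8.38 and 8.48 in wild type, so that the lowest wild-type array lay below the highest treated one. It fell by 0.20 (SE 0.0527, limma adjusted p = 0.028). Uros measured 7.62, 7.44, 7.36 and 7.47 and overlapped with the treated arrays as well. It fell by 0.23 (SE 0.0634, limma adjusted p = 0.0352), or to 0.768 on the authors' intensities.

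Single arrays decided parts of this comparison. The Fech call was lost without wild-type 4, 6 or 7 or 5-ALA 1 or 2 (limma adjusted p up to 0.0888). The Uros call was lost without wild-type 4, 5 or 7 or 5-ALA 1, 2 or 4 (up to 0.114). The Ppox call held in all 18 fits that left out 1 array. With wild-type 4, wild-type 7, 5-ALA 1 or 5-ALA 2 left out, 1 member was called, and without 5-ALA 3 there were 5. The fit on series B alone lost Fech (adjusted p = 0.0637) and Uros (0.0669). Arrays scaled to their median gave 0 member calls and smaller differences, of -0.07 for Ppox, -0.09 for Fech, -0.15 for Uros and -0.06 for Urod, so the size below wild type depends on the scaling, and the fit with consecutive arrays averaged gave 0.

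The other 5 members were not called against wild type. Alad stood at -0.30 (limma adjusted p = 0.0944), Cpox at -0.27 (0.0893), Alas2 at -0.20 (0.0581), Urod at -0.18 (0.0938) and Alas1 at 0.07 (0.323). Alas2 measured 6.86, 6.81, 6.88 and 6.90 in wild type, above all treated arrays. It passed the test on series B alone (adjusted p = 0.0151), on the authors' intensities (-0.49, 0.0255), with a trended robust prior (0.0461) and with array weights (0.0441). Alad measured 8.43, 8.56, 8.54 and 8.53 in wild type, also above all treated arrays.

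**Figure D4:**
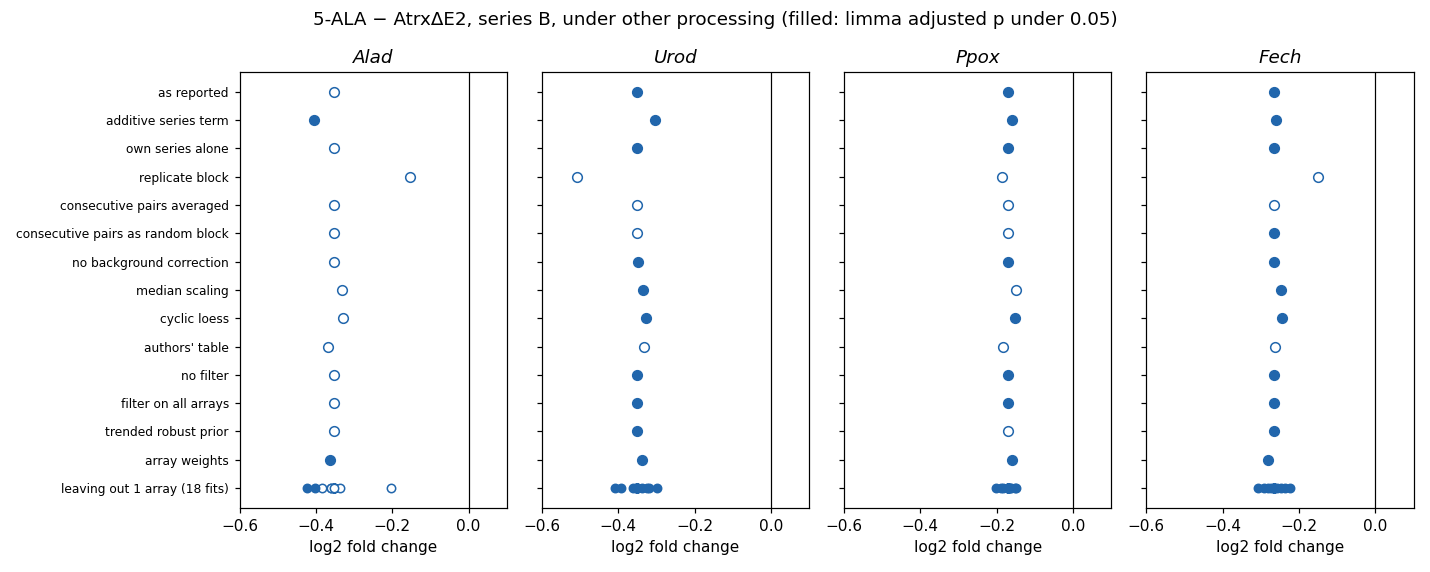
Log2 fold change of Alad, Urod, Ppox and Fech, 5-ALA minus AtrxΔE2 in series B, under each processing setting and in the 18 fits that left out 1 array. Filled points passed an adjusted p of 0.05; all points lie below 0, and Urod, Ppox and Fech stay filled in every fit that left out 1 array.

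Some markers of other cell types moved with the treated group, while others of the same lists did not. The 5 oligodendrocyte markers on the array, of 7 listed, summed to 11400 to 12100 units of the authors' intensity in untreated AtrxΔE2 of series B and to 7310 to 9800 after 5-ALA. Of these only Mbp was called lower (limma adjusted p = 0.0361), and Cnp averaged 1830 and 1960. All 7 microglial markers were on the array and summed to 1140 to 1450 and to 1020 to 1070. Among them only C1qa was called lower (limma adjusted p = 0.0185), while Csf1r averaged 68.6 and 68 and Tmem119 50.6 and 56.7. The 7 of 8 markers of striatum and thalamus summed to 4060 to 4580 and to 2410 to 2790. Most of this was the enkephalin gene Penk (mean 3640 and 1880). Penk (limma adjusted p = 0.0251), Rgs9 (0.0185) and Drd2 (0.0219) were called lower. Drd1, Tcf7l2, Rora and the thalamic marker Prkcd (mean 217 and 350) were not called. The 3 of 4 CA1 neuron markers summed to 340 to 437 and to 487 to 531, mostly Spink8 (mean 318 and 414). Spink8 was not called (limma adjusted p = 0.184), and Fibcd1 was called higher (0.00652). The 5 of 13 red cell markers with a probe summed to 392 to 563 and to 362 to 462. Most of this was Bpgm (mean 474 and 369), which was not called (limma adjusted p = 0.154). The 7 choroid plexus markers summed to 30400 to 35800 and to 28300 to 31800, mostly Ttr. Of them Sostdc1, Folr1, Cldn2 and Calml4 were called lower (limma adjusted p up to 0.015), and Ttr, Kl and Clic6 were not. Among the endothelial markers only Cldn5 was called lower (limma adjusted p = 0.00846), while Flt1 averaged 320 and 362. Of the neuron markers Snap25 was called lower (limma adjusted p = 0.0198) and Syt1 higher (0.0441), and Stmn2, Camk2a and Nefl were not called. In such bulk samples fewer cells of a type and less RNA per cell cannot be told apart. The part of these cell types, and of the brighter blank spots, in the falls of Urod, Ppox and Fech was not tested.

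The level of Cpox depended on the array series more than that of any other member. It measured 7.00 to 7.09 in wild type of series A and 7.89 to 8.13 in that of series B, a difference of 0.99. In AtrxΔE2 the difference was 0.86. The other members differed between the series by -0.33 to 0.26 in wild type. Uros lay lower in series B by 0.33 and Alas1 by 0.22, while Ppox lay higher by 0.26. The choroid plexus markers moved with this difference, from sums of at most 87.5 to at least 24700 in wild type. So did those of oligodendrocytes (2590 to 2860 and 10600 to 13300), of striatum and thalamus (522 to 943 and 3340 to 4160) and of dentate granule cells (40.8 to 48.4 and 165 to 299), and the mean of the blank spots. In the dentate list this was mostly C1ql2 (mean 11.1 and 173), while Prox1 averaged 8.93 and 10.2 and Tdo2 20.9 and 18.6. The part of these markers and of the blank spots was not tested.

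Around the enzymes, 67 of 71 further genes of haem metabolism could be tested. Of them, 2 were called higher and 4 lower after 5-ALA against untreated AtrxΔE2, where 3.49% and 3.26% of all tested probes were, and the median was 0.00, against 0 over all tested probes. The counts of the separate lists, given in turn below, are to be read against the same shares. The genotype gave 0 calls in series A. In series B it gave 1, the mitochondrial folate enzyme gene Mthfd2 (-0.27, SE 0.0609, limma adjusted p = 0.0297), where 2.41% of all tested probes were called; averaged pairs gave it an adjusted p of 0.461. Treated mice against wild type gave 3 calls higher and 7 lower, where 5.49% and 4.87% of all tested probes were called. All 10 were lost with consecutive arrays averaged. Those higher were Ogdh (0.61) and Dlst (0.43), subunit genes of the 2-oxoglutarate dehydrogenase that makes succinyl-CoA, and Fdx2 (0.18). Those lower were Hccs (-0.57), Isca2 (-0.34), the porphyrin exporter gene Abcg2 (-0.33), Slc48a1 (-0.29), Tspo (-0.27), Hmox1 (-0.27) and the neuroglobin gene Ngb (-0.24). These lists were chosen with earlier results of these data known.

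In the transport list, 3 of 13 tested genes were called lower after 5-ALA and 0 higher, while 6 of the 13 lay below 0. Tspo, whose product lies in the outer mitochondrial membrane and binds porphyrins, fell by 0.41 (SE 0.0672, limma adjusted p = 0.00352), or to 0.724 on the authors' intensities. Slc48a1, which encodes a haem transporter of endosomes and lysosomes, fell by 0.36 (SE 0.0547, limma adjusted p = 0.00217). Slc25a39, a mitochondrial carrier gene, fell by 0.23 (SE 0.0635, limma adjusted p = 0.0428). The Slc25a39 call was lost in 10 of the 18 fits that left out 1 array (adjusted p up to 0.109), while Tspo and Slc48a1 kept theirs in all 18. With consecutive arrays averaged, Tspo (adjusted p = 0.109) and Slc48a1 (0.0953) were no longer called. The glycine carrier gene Slc25a38 (0.04), the mitoferrin genes Slc25a37 (0.06) and Slc25a28 (0.09) and the porphyrin transporter gene Abcb6 (-0.02) were not called. The list's median was 0.04.

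Among the 4 haem breakdown genes 1 was called. Hmox1, the inducible haem oxygenase gene, fell by 0.28 (SE 0.049, limma adjusted p = 0.00513), or to 0.739 on the authors' intensities. With consecutive arrays averaged it was not called (adjusted p = 0.205). The constitutive oxygenase gene Hmox2 stood at -0.16 and the biliverdin reductase genes Blvra and Blvrb at -0.06 and -0.10, and these did not pass the test. The list's median was -0.13.

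Of the 13 regulators that act on ALAS1 or mitochondrial genes, 1 was called higher and 0 lower, while 6 lay below 0. Sirt1, a deacetylase gene, rose by 0.35 (SE 0.0959, limma adjusted p = 0.0404), a call lost in 6 of the 18 fits that left out 1 array (up to 0.118). Ppargc1a, a coactivator gene that raises Alas1 in mouse liver, stood at -0.02 on the brighter of its 2 tested probes. Nrf1 stood at -0.09 and the haem-binding repressor gene Bach1 at 0.15, and these 3 were not called. Iron-sulphur assembly, which supplies the cluster of ferrochelatase, had 1 of 9 tested genes called. Fdx2, a ferredoxin gene, rose by 0.14 (SE 0.0363, limma adjusted p = 0.0361), a call lost in 5 of those 18 fits (up to 0.112).

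The lists of succinyl-CoA and glycine supply (10 tested), of haem use (13) and of 5-ALA uptake (5) had 0 calls after 5-ALA against untreated AtrxΔE2. The smallest p of each was that of Ogdh, a subunit gene of the enzyme that makes succinyl-CoA (0.27, adjusted p = 0.206), of Hccs, which attaches haem to cytochrome c (-0.38, adjusted p = 0.106), and of Slc15a2, a peptide carrier gene whose product takes up 5-ALA (0.25, adjusted p = 0.379), all by limma.

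**Figure D5:**
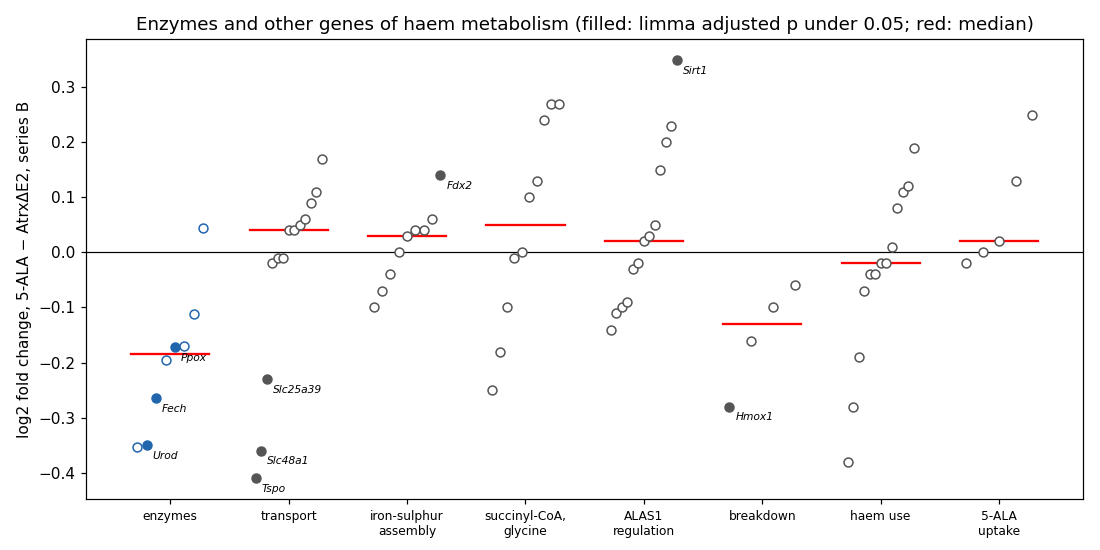
Log2 fold changes, 5-ALA minus AtrxΔE2 in series B, of the 8 enzymes and of 7 lists of other haem metabolism genes (points), with list medians as red lines. Filled points passed an adjusted p of 0.05; the enzymes' median lies at -0.18 and those of the other lists between -0.13 and 0.05.

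The genes most like each enzyme over the 12 series B arrays were sought among 15859 named genes by Pearson's r. The nearest gene was Acad12 for Alas1 (r = 0.921), Klk6 for Alas2 (0.946), Mcee for Alad (0.949) and Zfp931 for Uros (0.946). It was Gps2 for Urod (0.942), BC051019 for Cpox (0.959), Prss39 for Ppox (0.951) and Mbnl2 for Fech (0.959). The quinone reductase gene Nqo1 was among the nearest 3 of Urod (0.91), and the antibody receptor gene Fcgr3 among those of Fech (0.948). These are the highest of 15859 values over 12 arrays that share groups and normalization, and they are descriptions.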

How the data were processed

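The 18 single-colour arrays were used. Per the file headers, the deposited spot value is the authors' median spot intensity from scans at 3 gains related by least squares, with no scaling between arrays. The authors' normalized table holds a second intensity per probe with a median of 25 on every array. How it was made is not given in the sources used here. Its values of at least 25 were rebuilt to within 0.233% as the spot intensity minus the array's mean blank spot, scaled to that median, so its scale is linear. Symbols came from the platform annotation and were updated through RefSeq names on GRCm38.p6; 16631 probes carry one.

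Spots were corrected by limma's normexp (offset 50) on the spot values without the local background column. Spots marked at any gain (at most 16 per array, 0 of members) were left out, probes averaged and arrays quantile normalized. A probe was tested if it passed the 95th percentile of the array's 2736 blank spots on 4 arrays or more. limma 3.58.1 in R 4.3.3 fitted 1 mean per group and array series over the 18 arrays (two-sided moderated tests, Benjamini-Hochberg adjustment over 22544 probes, called under 0.05). The members, lists and tests were chosen with earlier results of these data known. Named were all 8 members, Atrx, at most 3 called genes per list after 5-ALA (else the 1 of smallest p) and the nearest genes by correlation; list genes called in other comparisons, and uncalled ones given for their roles, were added after their values were seen. A list gene with several tested probes was represented by the probe of highest mean value. Alternatives are given in the closing section. Replicate numbers were not used as a pairing in the main fit, because the labels state none. Deviations of same-numbered wild-type and AtrxΔE2 arrays correlated between -0.138 and 0.508 (median 0.0335, 7 pairs). This range does not settle whether the numbers pair samples. The number of arrays limits precision. The p-values set each difference against the spread between arrays taken as independent, which consecutive arrays of series B may not be. On simulated data of 22462 probes, changes of 0.25, 0.5 and 1 were recovered in 58.2%, 86.6% and 100% for 5-ALA against AtrxΔE2, and in 61.2%, 94.0% and 98.5% for the genotype in series B, with noise independent between arrays, which series B was not.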

Additional observations from a re-analysis of the deposited data

How the results depend on the processing

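Each member has 1 probe, so averaging probes was not run as an alternative. All 8 members were above the blank spots on every array. The dimmest, Alas2, stood at -0.11 after 5-ALA against AtrxΔE2, and at -0.26 on the authors' intensities. For 5-ALA against AtrxΔE2, 3 members and 1521 probes were called. The replicate block left 0 members and 9 probes, consecutive arrays averaged left 0 and 23, the same pairs as a random block 1 (Fech) and 371, and the authors' intensities 0 and 727, while median scaling left 973 probes. In the block fit only number 4 is shared by treated and untreated series B arrays, so it draws on series A, and there Cpox turned to 0.15 and, against wild type, to 0.07. Leaving out 1 array gave 3 to 5 members and 586 to 2178 probes, lowest without AtrxΔE2 4 (867), 5 (862) or 7 (819) or 5-ALA 1 (586) or 2 (700). For 5-ALA against wild type, 3 members and 2335 probes were called. The replicate block left 0 members and 27 probes, consecutive arrays averaged 0 and 15, the random block 0 and 699, and median scaling 0 members, while cyclic loess left 1511 probes. Leaving out 1 array gave 1 to 5 members and 985 to 3364 probes. The split of all called probes, 1238 higher and 1097 lower, became 429 and 2324 on the authors' intensities and 1194 and 434 with median scaling.

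For the genotype in series B, 0 members and 543 probes were called (274 higher, 269 lower). Median scaling gave 2 members and 3951 probes (1285 higher, 2666 lower), the authors' intensities 353 probes (52 higher, 301 lower), array weights 866, averaged pairs 36, the random block 147, and leaving out 1 array 250 to 621. Over both series, 0 members and 100 probes (62 higher, 38 lower) were called. Median scaling gave 2 members and 4203 probes (949 higher, 3254 lower), the additive series term 20, the replicate block 47, averaged pairs 11, the random block 33, cyclic loess 54, the authors' intensities 39 (14 higher, 25 lower), array weights 168, and leaving out 1 array 40 to 104. In series A, 2 probes were called, against 0 in that series alone, 1 with the replicate block or averaged pairs, 6 with median scaling, 4 with a trended prior or array weights, and 1 to 8 with 1 array left out. The difference between the series had 23 probes, against 5 with averaged pairs, 13 with the random block, 7 on the authors' intensities, 53 with array weights, and 5 to 34 with 1 array left out. The causes were not tested.

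Small genotype differences changed sign, and none of these was called. With median scaling this held for Alas1 (0.05) and Urod (0.01) in series A, Uros (0.01) and Cpox (0.02) in series B, and Cpox (0.05) and Ppox (0.03) over both. On the authors' intensities it held for Alas1 (-0.04), Alad (-0.01), Ppox (-0.07) and Fech (-0.01) in series B, Alas1 (-0.04) over both and Fech (-0.03) in the difference between series. With array weights it held for Alas2 in series A (-0.02) and Ppox in series B (-0.01). With 1 array left out, Alas1 ran from -0.05 to 0.03, Alas2 from -0.09 to 0.08 and Cpox from -0.04 to 0.17 in series A, Ppox from -0.02 to 0.02 in series B, Alas1 from -0.01 to 0.03 and Cpox from -0.06 to 0.05 over both, and Alas2 from -0.17 to 0 and Fech from -0.01 to 0.05 in the difference. Of the other called haem genes after 5-ALA, Tspo, Slc48a1 and Hmox1 lost their call only with the replicate block or averaged pairs, 2 of 13 settings each, as did Atrx over both series in 2 of 10. Slc25a39 lost it in 9 of 13, Sirt1 in 7 and Fdx2 in 5, and Fdx2 turned to -0.01 with the replicate block. Of the 10 haem genes called against wild type, 6 also lost their call in some fit without 1 array, and Mthfd2 in series B lost its call in 6 of 18.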
